A study of Homo sapiens with 6 samples.

Results

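Growth factor ligands are the signals that cells send to one another through receptors at the cell surface, and 58 genes for them were examined in a rhabdoid tumour cell line after exposure to SAHA. The list named every fibroblast growth factor (FGF), the vascular endothelial (VEGF) and platelet-derived (PDGF) growth factors, the epidermal growth factor (EGF) family with the neuregulins, HGF, KITLG and CSF1, the angiopoietins, GAS6 and PROS1, the neurotrophins, the GDNF family, and pleiotrophin and midkine. Members were taken by gene symbol, and the list was drawn up with earlier results of these data known. Each gene was read from the probe set annotated to it alone, with the highest mean over all 6 arrays where there were several. This gave values for 54 of the 58 genes, among 18417 genes on the array. VEGFD, AREG, NTF3 and GDNF had no probe set annotated to them alone and were not analysed here.

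The line, A204, is an established culture of rhabdoid tumour, a childhood cancer usually defined by loss of the chromatin remodelling subunit SMARCB1. The 3 SAHA arrays held RNA from A204 cells exposed for 12 h to SAHA (vorinostat), which blocks histone deacetylases, the enzymes that take acetyl groups off histones and other proteins. The concentration is not given here because the unit in the labels is incomplete. The 3 control arrays held RNA from A204 cells; the treatment protocol names DMSO for them and the sample labels name no treatment. All 6 were whole-transcript arrays of 1 line grown in culture, and nothing in the labels tells separate cultures from repeat arrays of 1 culture. A p-value here therefore weighs a difference against array-to-array spread alone, which could be technical. In RNA from a whole culture, fewer cells that make a transcript and less of it per cell cannot be told apart.

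Most of these ligands are secreted or shed proteins that bind receptor tyrosine kinases on the same or a neighbouring cell and switch on the RAS-MAP kinase and PI3 kinase pathways. Paracrine FGFs are held close to the cell by heparan sulphate, endocrine FGFs act through the blood with a klotho coreceptor, and the FGF homologous factors stay inside the cell, where they bind voltage-gated sodium channels. EGF family ligands are made as membrane proteins and cut free by proteases, and a few ligands of the list reach other receptors, as CSF1 does with CSF1R.

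Signals are log2 of the deposited array intensity, and changes are the SAHA mean minus the control mean on that scale, so that a change of 1 is 2-fold. Median signal per array, before logs, lay between 142 and 149. Correlations across genes ran from 0.9965 to 0.998 between arrays of 1 group and from 0.9728 to 0.9738 between groups. Of the markers looked at, SMARCB1 read 7.16 to 7.25 on the SAHA arrays and 7.71 to 7.78 on the control arrays, VIM read 12.61 to 12.65 and 12.78 to 12.84, and the leukocyte gene PTPRC read 4.01 to 4.22 and 3.97 to 4.11. Of 7 rhabdoid and mesenchymal markers, 1 was higher (FN1) and 4 lower. Of 6 epithelial markers 3 were higher and 2 lower, and of 5 skeletal muscle markers 1 was higher and 0 lower. Over all genes, 31.1% were higher and 28.9% lower by the test given below. No detection calls were used, so no gene is described as present or absent.

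By limma's moderated test, with p-values adjusted by Benjamini-Hochberg over all 18417 genes, 25 of the 54 ligand genes (46.3%) passed an adjusted p of 0.05 and are called changed, where 60% of all genes were called. Higher calls numbered 17 (31.5%), near the 31.1% of all genes. Lower calls numbered 8 (14.8%), against 28.9% of all genes, a difference that was not tested. The split depended on scaling: a further quantile normalization of the arrays gave 16 higher and 15 lower calls, so that 51.6% of the calls were higher, against 68% without it. After it 29.6% of the ligand genes were higher and 27.8% lower, against 30.6% and 32.3% of all genes (62.9% called in all). The median change of all genes was then -0.031.

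The changes were mostly small. Only CSF1 and VEGFA among the lower genes and EREG and FGF12 among the higher ones changed at least 2-fold, 4 genes (7.41%), where 11.3% of all genes did (5.84% higher and 5.42% lower). The median change over the 54 genes was 0.06, and the median size of a change regardless of sign was 0.15, against -0.0027 and 0.24 over all genes. The signals of the SAHA and control arrays did not overlap for 29 of the ligand genes (53.7%), 18 of them higher and 11 lower, where 65.4% of all genes did not overlap (33.8% higher and 31.6% lower).

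**Figure D1:**
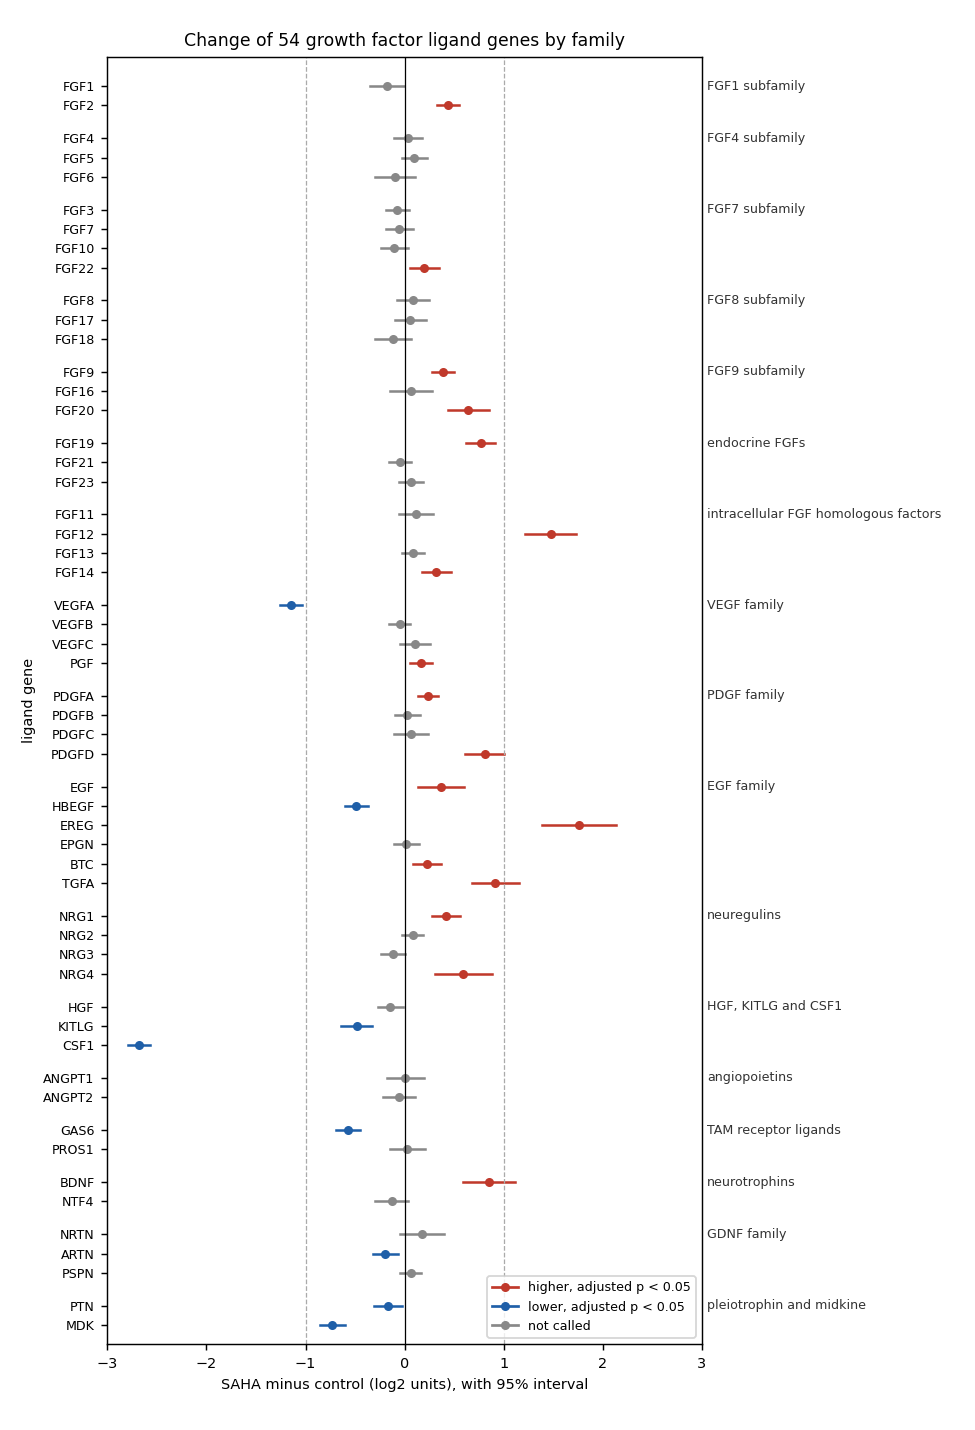
Change of each of the 54 measured ligand genes after SAHA (horizontal axis, SAHA minus control in log2 units) with its 95% interval, grouped by family down the page; red marks higher, blue lower and grey not called, and dashed lines mark a 2-fold change. CSF1 at -2.68 and VEGFA at -1.14 lie beyond the left line, EREG at 1.76 and FGF12 at 1.47 beyond the right one, and no FGF is called lower at this scaling, where a further quantile normalization calls FGF1, FGF3, FGF18 and FGF21 lower.

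Promoter sequence is shown for EREG, EPGN, BTC and HBEGF of the EGF family, whose changes differed, and for FGF12. EPGN, EREG and BTC stand in that order on chromosome 4 with AREG between EREG and BTC. EREG had the largest rise of all ligand genes. HBEGF, an EGF family gene on chromosome 5, was lower. FGF12 had the largest rise among the FGFs and is shown with both of its listed starts; which start the probe set reads is not given in the sources used here. Each line holds the 250 bases before the start of transcription on the gene's own strand, 5′ to 3′, from RefSeq on GRCh38.p14, with capitals for the TATA box TATAAA and the GC box GGGCGG, searched on both strands.
EREG, chr4:74364895-74365144, plus strand: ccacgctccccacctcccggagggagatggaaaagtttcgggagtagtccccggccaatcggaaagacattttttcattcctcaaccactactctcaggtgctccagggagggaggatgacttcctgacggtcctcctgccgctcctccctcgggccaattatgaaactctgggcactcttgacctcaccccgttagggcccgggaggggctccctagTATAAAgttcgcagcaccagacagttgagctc
EPGN, chr4:74308220-74308469, plus strand: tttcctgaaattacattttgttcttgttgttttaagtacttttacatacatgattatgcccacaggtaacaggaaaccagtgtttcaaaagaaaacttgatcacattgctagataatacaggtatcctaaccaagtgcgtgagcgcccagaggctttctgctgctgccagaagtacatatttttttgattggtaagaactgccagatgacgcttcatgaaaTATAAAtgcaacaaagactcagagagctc
BTC, chr4:74794524-74794773, minus strand: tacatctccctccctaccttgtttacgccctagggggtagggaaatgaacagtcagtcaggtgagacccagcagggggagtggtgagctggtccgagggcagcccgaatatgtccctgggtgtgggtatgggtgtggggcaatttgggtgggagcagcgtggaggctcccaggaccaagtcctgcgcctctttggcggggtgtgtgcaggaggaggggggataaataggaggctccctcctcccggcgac
HBEGF, chr5:140346604-140346853, minus strand: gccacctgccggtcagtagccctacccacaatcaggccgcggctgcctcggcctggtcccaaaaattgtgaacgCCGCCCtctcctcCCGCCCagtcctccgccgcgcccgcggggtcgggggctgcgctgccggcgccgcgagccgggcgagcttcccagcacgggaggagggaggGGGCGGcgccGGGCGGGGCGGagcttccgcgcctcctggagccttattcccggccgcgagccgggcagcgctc
FGF12, chr3:192727542-192727791, minus strand: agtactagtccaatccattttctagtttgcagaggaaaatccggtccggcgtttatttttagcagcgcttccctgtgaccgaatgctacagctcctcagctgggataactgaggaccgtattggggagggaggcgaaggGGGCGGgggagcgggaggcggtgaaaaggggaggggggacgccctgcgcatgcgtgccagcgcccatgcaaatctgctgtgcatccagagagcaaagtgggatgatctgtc
FGF12, chr3:192409598-192409847, minus strand: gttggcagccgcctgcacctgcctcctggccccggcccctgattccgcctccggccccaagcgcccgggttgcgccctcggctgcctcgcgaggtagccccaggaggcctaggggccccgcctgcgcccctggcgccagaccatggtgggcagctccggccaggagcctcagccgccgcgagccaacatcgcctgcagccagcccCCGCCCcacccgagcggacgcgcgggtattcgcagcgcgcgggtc
EREG had a TATA box beginning 32 bases before the start and EPGN one beginning 29 bases before it, and neither held a GC box. HBEGF held 5 GC boxes, of which 1 pair shared 1 base, and no TATA box. Each FGF12 promoter held 1 GC box and no TATA box, and BTC held neither motif. Among all 35116 promoters of this length in the table, 42.6% held a GC box and 10.7% a TATA box. These matches describe the letters in these windows and were not tested against the changes.

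The FGFs were called in 1 direction only, which did not hold after the further quantile normalization. Of 22 FGF genes, all of them measured, 7 were higher after SAHA, 0 were lower and 15 were not called. The higher share, 31.8%, was near the 31.1% of all genes. At an unadjusted p under 0.05, FGF1 was also lower, with a change of -0.18 (adjusted p = 0.067). After the further quantile normalization, limma called FGF1, FGF3, FGF18 and FGF21 lower. So the absence of lower calls depended on the scaling.

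FGF2, the basic FGF of the paracrine class and a mitogen for mesenchymal cells, read 12.52, 12.55 and 12.62 on the SAHA arrays and 12.08, 12.14 and 12.14 on the control arrays. The change was 0.44, or 1.36-fold (limma adjusted p = 6.49e-05). Every SAHA array lay above every control array. FGF2 overlaps NUDT6 on the genome, and whether its probe set reads 1 strand is not given in the sources used here. That limit also holds for TGFA, PDGFD, MDK, GAS6, NRG1, NRG4, EGF, FGF14 and PDGFA, which overlap other annotated genes.

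Another 3 paracrine FGFs rose. FGF20, of the FGF9 subfamily and known for its part in sensory and kidney progenitors, read 7.54, 7.47 and 7.24 after SAHA and 6.70, 6.70 and 6.90 in control cells, a change of 0.64 (adjusted p = 0.000337, limma). FGF9, its close relative, read 5.21, 5.22 and 5.12 against 4.74, 4.81 and 4.82 in control cells, a change of 0.39 (adjusted p = 0.000175, limma). Both genes had every SAHA array above every control array, while FGF16, the remaining member of that subfamily, was not called at 0.06. The signals of FGF9, FGF14 and NRG4 were dim. They lay above PTPRC but below CD3E, another blood cell marker, which read 5.57 to 5.66 on the SAHA arrays and 5.61 to 5.75 on the control arrays. On the control arrays EGF (5.08 to 5.16) was also below CD3E, and BTC (5.57 to 5.73) was level with it. FGF12 and BDNF, each at 5.70 to 6.13 there, lay below the blood cell marker ITGAM (6.16 to 6.32). EREG, at 6.08 to 6.32, was level with ITGAM. On the SAHA arrays FGF12, BDNF and EREG lay above ITGAM, which read 6.26 to 6.35. FGF22, of the FGF7 subfamily, changed by 0.20 (limma adjusted p = 0.0271). That call was lost without SAHA replicate 2 or 3 and without control replicate 1 or 2, with adjusted p-values up to 0.0897, and with the unmoderated test (0.0815). The 4 paracrine rises stood among 15 paracrine genes (26.7%, against 31.1% of all genes). The smallest adjusted p in the FGF4 subfamily was that of FGF5 (change 0.10, adjusted p = 0.17, limma), and in the FGF8 subfamily that of FGF18 (change -0.12, adjusted p = 0.22). FGF18 was called lower without control replicate 3 (limma adjusted p = 0.0253) and also, with all 6 arrays, after the further quantile normalization (limma adjusted p = 0.0276).

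Among the 3 endocrine FGFs, FGF19 rose and FGF21 and FGF23 were not called. FGF19, in human physiology the gut hormone that restrains bile acid synthesis, read 7.46, 7.56 and 7.62 on the SAHA arrays and 6.75, 6.88 and 6.71 on the control arrays. The change was 0.77, or 1.7-fold (95% interval 0.62 to 0.91, limma adjusted p = 1.26e-05), with no overlap between the groups. FGF19 has FGF4 and then FGF3 as its neighbours on chromosome 11. Those genes changed by 0.03 and -0.07 and were not called. On chromosome 12 the adjacent FGF23 and FGF6 changed by 0.06 and -0.10. The differences between neighbours were not tested.

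The intracellular FGF homologous factors held the largest FGF change. FGF12 read 7.28, 7.39 and 7.53 on the SAHA arrays and 5.70, 5.95 and 6.13 on the control arrays. The lowest SAHA array was thus more than 1 log2 unit above the highest control array, and the means were 7.40 ± 0.13 and 5.93 ± 0.22 (SD, n = 3 each). The change was 1.47 (SE 0.11, limma adjusted p = 8.59e-06), or 2.78-fold. FGF14, another sodium channel partner in neurons, changed by 0.32 (limma adjusted p = 0.00258), and FGF11 and FGF13 were not called at 0.11 and 0.08. FGF12 shares its locus with antisense transcripts (FGF12-AS1, FGF12-AS2 and FGF12-AS3).

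VEGFA, the main driver of blood vessel growth, was lower after SAHA. It read 10.87, 10.85 and 10.79 on the SAHA arrays and 11.97, 12.04 and 11.92 on the control arrays, so the groups stood apart by far more than the spread within either. The means were 10.84 ± 0.04 and 11.98 ± 0.06 (SD, n = 3 each), and the change was -1.14 (95% interval -1.25 to -1.03, limma adjusted p = 3.39e-07), 2.21-fold lower. PGF, the placental ligand of FLT1, moved the other way by 0.17 (adjusted p = 0.0192, limma), and lost its call without SAHA replicate 1, without SAHA replicate 3 and without control replicate 1. VEGFB and the lymphatic factor VEGFC were not called, at -0.05 and 0.11.

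Genes used as endothelial markers also moved in these arrays. Of 7 such genes, 2 were higher and 2 lower (28.6% each, against 31.1% and 28.9% of all genes), and CDH5 changed by -2.19. KDR and TEK of these also stand among the receptors. The 7 summed to between 2083 and 2195 linear signal units on the SAHA arrays and between 7232 and 7490 on the control arrays. PECAM1 was not called, at 0.13. CDH5 carried the fall of that sum: without it, the other 6 summed to 628 to 671 on the SAHA arrays and 521 to 540 on the control arrays. Their part in the VEGF results was not tested.

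Of the 4 PDGF genes, which code for mitogens of fibroblasts and smooth muscle, 2 were higher and 0 lower. The higher share was 50%, against 31.1% of all genes, of which 28.9% were lower. PDGFD, a ligand of PDGFRB that needs proteolytic activation, read 7.25, 7.49 and 7.35 on the SAHA arrays and 6.57, 6.68 and 6.42 on the control arrays, a change of 0.81 (adjusted p = 5.97e-05, limma). PDGFA changed by 0.23 (limma adjusted p = 0.00201). The SAHA arrays lay above the control arrays for both genes. PDGFB and PDGFC were not called, at 0.03 and 0.06.

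The EGF family divided. Of its 6 measured genes, 4 were higher (EREG, TGFA, EGF and BTC), HBEGF was lower and EPGN was not called. The higher share was 66.7% and the lower share 16.7%, against 31.1% and 28.9% of all genes. These differences were not tested. EREG, which codes for epiregulin, a ligand of EGFR and ERBB4, read 8.23, 7.55 and 8.08 on the SAHA arrays and 6.08, 6.19 and 6.32 on the control arrays. SAHA replicate 2 was the lowest of its group and still lay more than 1 log2 unit above every control array. The means were 7.95 ± 0.35 and 6.20 ± 0.12 (SD, n = 3 each) and the change was 1.76 (SE 0.16, 95% interval 1.38 to 2.13, limma adjusted p = 2.64e-05), or 3.38-fold.

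TGFA, a ligand of EGFR alone, rose as well. It read 7.43, 7.06 and 7.42 on the SAHA arrays and 6.35, 6.32 and 6.48 on the control arrays, with SAHA replicate 2 again lowest of the treated arrays. The change was 0.92 (limma adjusted p = 8.16e-05), or 1.89-fold. EGF itself changed by 0.37 and BTC, which codes for betacellulin, by 0.23 (adjusted p = 0.0129 and 0.0138, limma). Both of these calls were lost with an unmoderated test, and that of BTC also after quantile normalization. EPGN, beside EREG on chromosome 4, changed by 0.02 (95% interval -0.11 to 0.14).

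HBEGF, whose heparin-binding product is shed in response to many stresses, fell. It read 11.14, 11.19 and 11.10 on the SAHA arrays and 11.58, 11.62 and 11.70 on the control arrays, with no overlap. The change was -0.49, or 1.4-fold (adjusted p = 5.16e-05, limma). Its promoter is the one with 5 GC boxes among the EGF family sequences printed above. TGFA, which was higher and is not printed, held 3 GC boxes at a listed start and 0 at another, with no TATA box. The promoter of EGF, also higher, held neither motif. GC boxes were not tested against the changes.

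The neuregulins, ligands of ERBB3 and ERBB4, had 2 of 4 genes higher (50%, against 31.1% of all genes) and 0 lower (against 28.9%). NRG4 read 5.01, 5.36 and 5.05 on the SAHA arrays and 4.78, 4.42 and 4.44 on the control arrays, a change of 0.59 (limma adjusted p = 0.00313). NRG1 read 6.77, 6.90 and 6.77 after SAHA against 6.32, 6.48 and 6.38 in control cells, a change of 0.42 (limma adjusted p = 0.000403). Neither gene had overlapping groups, but the second probe set of NRG1 changed by 0.14 and was not called (adjusted p = 0.0774 over all probe sets), so its probe sets disagreed on the call. NRG2 and NRG3 changed by 0.08 and -0.12 and were not called, although quantile normalization made NRG3 a lower call.

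CSF1 had the largest change of all 54 ligand genes. It codes for the growth factor of macrophages and is read here on chromosome 1. It read 8.88, 8.84 and 8.76 on the SAHA arrays and 11.49, 11.54 and 11.48 on the control arrays. The groups were separated by more than 2 log2 units, far more than the spread within either. Means were 8.82 ± 0.06 and 11.50 ± 0.03 (SD, n = 3 each), and the change was -2.68 (SE 0.05, 95% interval -2.79 to -2.57, limma adjusted p = 8.5e-09), 6.4-fold lower. Among 6 measured blood cell markers, CD14 alone was called, higher, and the 6 summed to 2178 to 2271 linear units on the SAHA arrays and 710 to 764 on the control arrays. Without CD14 the other 5 summed to 245 to 255 on the SAHA arrays and 250 to 254 on the control arrays. The part of CD14 in the CSF1 result was not tested.

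KITLG, the stem cell factor that binds KIT, was lower too. It read 9.49, 9.53 and 9.38 on the SAHA arrays and 9.93, 9.86 and 10.07 on the control arrays, a change of -0.48 (limma adjusted p = 0.000335). HGF, the scatter factor that binds MET, had a change of -0.14 that missed the threshold (adjusted p = 0.051, limma) and passed it after quantile normalization. ANGPT1 and ANGPT2, ligands of the endothelial receptor TEK, were not called (0.01 and -0.06, the second with an adjusted p of 0.507 by limma).

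GAS6, a vitamin K-dependent ligand of the TAM receptors that recognise dying cells, read 8.04, 7.97 and 8.02 on the SAHA arrays and 8.52, 8.66 and 8.55 on the control arrays. The change was -0.57, or 1.48-fold (adjusted p = 2.74e-05, limma), with no overlap. Its relative PROS1, better known as an anticoagulant, was not called, at 0.03. A second PROS1 probe set changed by -0.24 (adjusted p = 0.0343 over all probe sets), so the probe sets of this gene disagreed.

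MDK, midkine, a heparin-binding cytokine common in embryos and tumours, read 11.16, 11.14 and 11.20 on the SAHA arrays and 11.82, 11.87 and 12.00 on the control arrays. Midkine was lower by a change of -0.73, or 1.66-fold (adjusted p = 7.89e-06, limma), and no array of one group reached the other. PTN, pleiotrophin, its only close relative, changed by -0.17 (adjusted p = 0.0392, limma). That call was lost without SAHA replicate 2 and without each control array (adjusted p up to 0.106, limma). It was also lost with the replicate block (0.0623), array weights (0.0609), trend and robust eBayes (0.0709) and the unmoderated test (0.0922).

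Of the nerve growth ligands, BDNF rose. The gene, which codes for the main neurotrophin of the adult brain, read 6.79, 6.94 and 6.68 on the SAHA arrays and 5.70, 6.02 and 6.13 on the control arrays. The change was 0.85, or 1.81-fold (adjusted p = 0.000243, limma), and the groups did not overlap. BDNF overlaps its antisense gene BDNF-AS. NTF4 was not called, at -0.13, but was a lower call after quantile normalization. In the GDNF family, ARTN, which codes for artemin, changed by -0.20 (limma adjusted p = 0.0136, or 0.0537 without SAHA replicate 3), and NRTN and PSPN were not called, at 0.18 and 0.06.

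**Figure D2:**
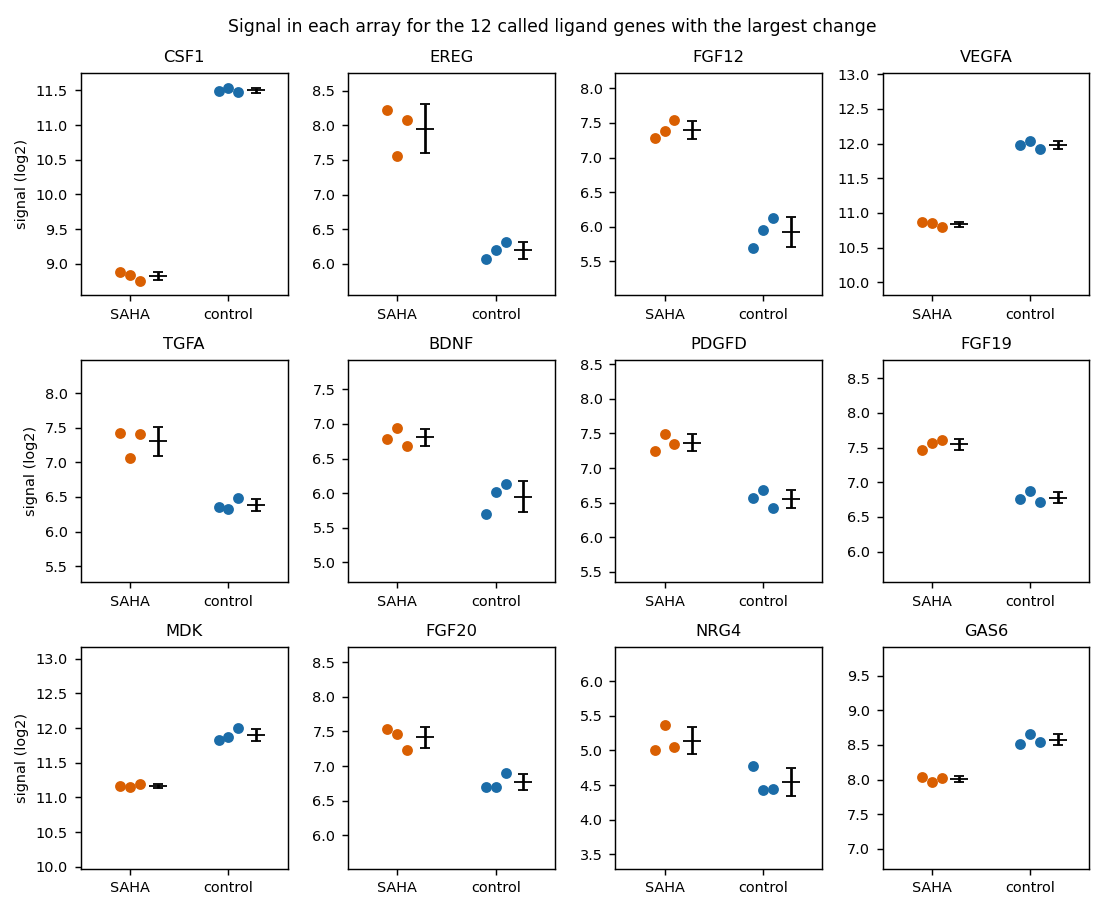
Log2 signal in each array (vertical axis, with its own position but the same span for each gene) for the 12 called ligand genes with the largest change; orange points are SAHA arrays, blue points control arrays, and the black line and bar are the mean and SD of 3 arrays. No panel has overlapping groups, and the widest spread is that of EREG on the SAHA arrays, 7.55 to 8.23.

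The 29 ligand genes that were not called had changes between -0.18 and 0.18, and their 95% intervals all lay between -0.35 and 0.40. No interval of theirs reached a 2-fold change in either direction. Calls were split by signal: among the 11 ligand genes whose mean signal was at or above that of the median gene (8.14), 2 were higher and 6 lower, while among the 43 below it 15 were higher and 2 lower. Over all genes, 38% were higher and 41.4% lower at or above that signal, and 24.3% and 16.3% below it. FGF2 and PGF were the brighter genes that were higher.

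The receptors of these ligands were taken from a list of 39 receptor and coreceptor genes, of which 35 were measured. Higher calls numbered 15 (42.9%, against 31.1% of all genes) and lower calls 10 (28.6%, against 28.9%). After the further quantile normalization there were 13 higher and 11 lower, so that 54.2% of the calls were higher, against 60% without it. FGFR4, ERBB3 and MET had the largest rises, and NRP1, CSF1R and KL the largest falls. FGFR4, the receptor through which FGF19 acts in the liver, read 9.74, 9.65 and 9.73 on the SAHA arrays and 7.33, 7.47 and 7.40 on the control arrays, a change of 2.31 (adjusted p = 1.89e-08, limma). Its coreceptor KLB was not called, at -0.07.

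For CSF1 and VEGFA the receptors moved as follows. CSF1R, the tyrosine kinase that binds CSF1, read 7.25, 7.31 and 7.41 on the SAHA arrays and 8.87, 8.94 and 9.04 on the control arrays, a change of -1.63 (adjusted p = 1.97e-07, limma). NRP1, a VEGFA coreceptor that also binds semaphorins, read 9.85, 9.73 and 9.84 against 11.90, 11.99 and 11.84 in control cells, a change of -2.10 (adjusted p = 4.05e-08, limma). Ligand and receptor were both lower in these 2 pairs. KDR, the main signalling receptor of VEGFA, was instead higher by 0.64 (adjusted p = 6.02e-05, limma), and FLT1 was not called at 0.09. KDR was dim, at 6.09, 6.05 and 6.28 on the SAHA arrays and 5.44, 5.51 and 5.53 on the control arrays. Its control signals lay below those of the blood cell marker CD3E (5.61 to 5.75). FLT1 was dimmer still, at 4.81 to 5.02 on the SAHA arrays and 4.74 to 4.82 on the control arrays. KIT changed by -0.75 (adjusted p = 0.00122, limma), the same direction as KITLG.

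The receptors of the EGF family ligands and neuregulins were higher for 3 of 4 genes, where 31.1% of all genes were higher. That difference was not tested. ERBB3, which binds NRG1, changed by 1.33 (adjusted p = 1.62e-06, limma), ERBB4 by 0.64 (adjusted p = 0.000846) and EGFR by 0.27 (adjusted p = 0.00207). ERBB2, which has no ligand of its own, changed by -0.72 (adjusted p = 1.68e-05). FGFR1 and FGFR3 were lower, at -0.62 and -0.58, and FGFR2 was higher, at 0.82 (adjusted p = 3.2e-05, limma). FGF2 and FGF9, ligands that bind FGFR1, FGFR2 and FGFR3 in one or another splice form, were higher. KL, the coreceptor of FGF23, changed by -1.40 (adjusted p = 1.1e-07, limma). MET was higher by 0.87 while HGF was not called, and NTRK2, the receptor of BDNF, was lower at -0.44 while BDNF was higher. TYRO3 and AXL, receptors of GAS6, changed by -0.29 and 0.23. MERTK, a further and brighter GAS6 receptor at 10.75 to 10.93, was not called, at 0.10 (adjusted p = 0.0971, limma).

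**Figure D3:**
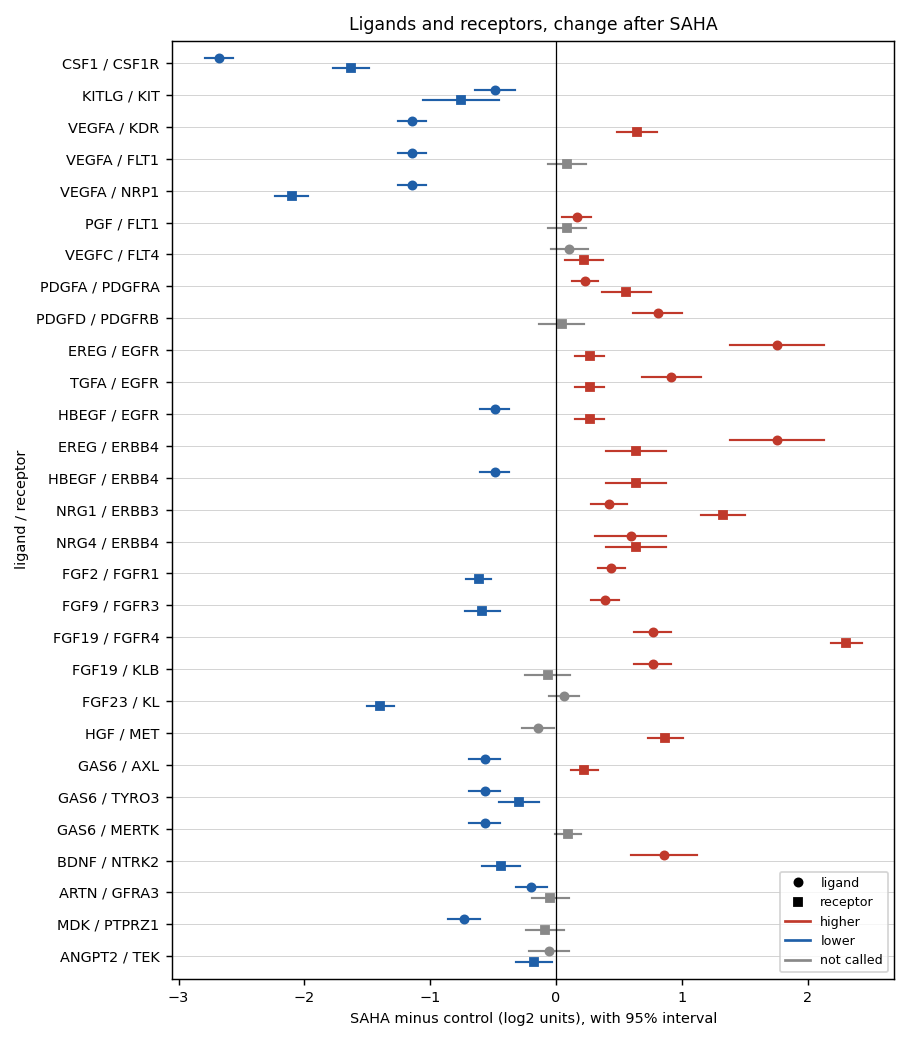
Change of a ligand (circle) and of a receptor it binds (square) after SAHA, in log2 units with 95% intervals, for textbook pairs down the page; red marks higher, blue lower and grey not called. CSF1 and CSF1R lie left of 0 together, at -2.68 and -1.63, FGF19 and FGFR4 right of it, at 0.77 and 2.31, and VEGFA (-1.14) lies opposite to KDR (0.64). KDR was dim on the control arrays, at 5.44 to 5.53.

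Genes that process or carry the ligands were measured for 19 names, with 9 higher (47.4%, against 31.1% of all genes) and 5 lower (26.3%, against 28.9%). The further quantile normalization gave 8 higher and 7 lower, which took the share of calls that were higher to 53.3%, against 64.3% without it. FGFBP1, a secreted carrier that frees FGF2 from the matrix, was higher by 1.41 (adjusted p = 3.24e-07, limma). PLAT, tissue plasminogen activator, was higher by 0.98 and GGCX, the carboxylase that modifies GAS6 and PROS1, by 0.63. PCSK6, FGFBP3 and SPINT2 had the largest falls, at -0.81, -0.73 and -0.72. ADAM17 and ADAM10, proteases that shed EGF family ligands, were not called, at -0.01 and 0.08.

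Feedback and target genes of receptor tyrosine kinase signalling were read in 19 measured genes, of which 13 were higher (68.4%, against 31.1% of all genes) and 2 lower (10.5%, against 28.9%), with a median change of 0.50. At or above the median signal, where 17 of the 19 lay, 38% of all genes were higher and 41.4% lower. DUSP6, a phosphatase that switches off ERK, was higher by 1.99, FOS, an immediate early transcription factor, by 1.81, and DUSP5, a nuclear phosphatase, by 1.39 (limma adjusted p = 1.98e-06, 4.39e-06 and 5.6e-06). IL17RD, SPRY2 and ERRFI1 were also at least 2-fold higher. SPRY1 changed by -0.37 and FOSL1 by -0.13. Control replicate 3 was the lowest control array for DUSP6, FOS, DUSP5 and DUSP4 (8.20, 10.12, 8.33 and 7.58), and every SAHA array lay above every control array for these genes.

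**Figure D4:**
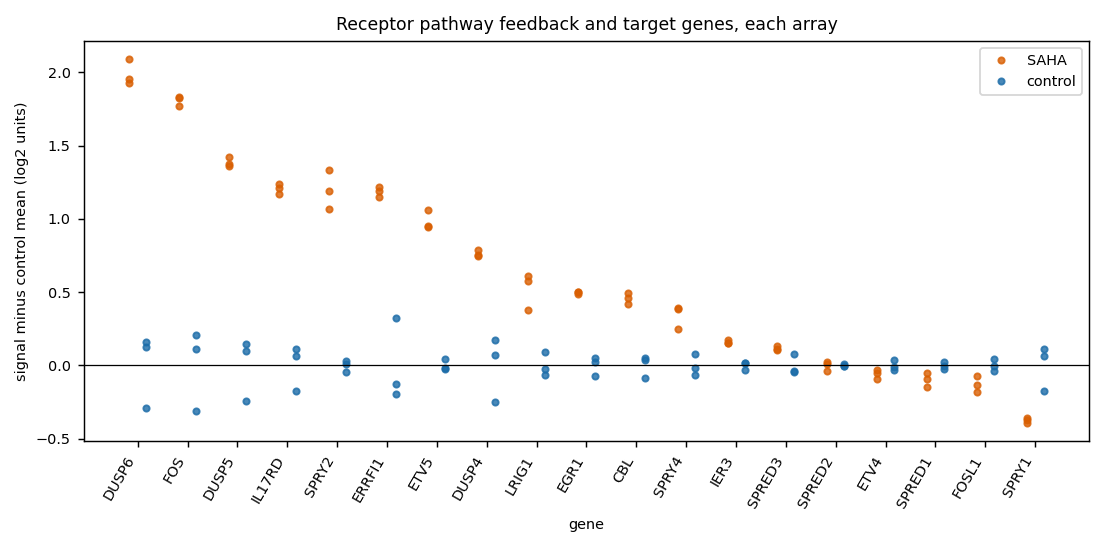
Signal of each array minus the control mean (vertical axis, log2 units) for the 19 measured feedback and target genes of receptor tyrosine kinase signalling, ordered by change; orange points are SAHA arrays and blue points control arrays. DUSP6, FOS and DUSP5 stand highest on the SAHA arrays, at changes of 1.99, 1.81 and 1.39, and SPRY1 stands lowest, at -0.37.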

How the data were processed

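The authors deposited 1 table of 6 whole-transcript Affymetrix arrays, and its values were made with RMA, per the submitters' processing notes. RMA values are usually on a log2 scale, but the deposited intensity values ran from 6.56 to 20338 and are linear, so log2 was taken. RMA usually includes a quantile normalization, which forces the arrays' distributions together; a further one still moved calls here. The sources used here do not name the build of the annotation. Of 33252 probe sets, GEO's platform annotation gives 1 gene for 19460, several for 1754 and none for 12038; 19429 symbols matched RefSeq and 31 kept the older name. Where a gene had several probe sets, the one brightest on average across the 6 arrays stood for it, which left 18417 genes, 769 of them with several probe sets.

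SAHA and control arrays were compared with limma 3.58.1 in R 4.3.3 (lmFit and eBayes, no covariates). The p-values were adjusted by Benjamini-Hochberg across the 18417 genes and called at an adjusted p under 0.05. The fit was also run on simulated data in which few genes changed, unlike here, so that run does not bear on the calls. Tables and figures were made with Python 3.11.15, pandas 2.3.3 and matplotlib 3.10.9. The number of arrays limits the precision. Alternatives changed the scaling, pseudocount, filter on dim genes, choice of probe sets, variance model and replicate block, and left out each array in turn. Values of all 6 arrays were given for members changed at least 2-fold and for leading members of the other families, and the 3 largest rises and falls were named in each pathway list. Members, lists, pairs and the rule for naming genes were chosen with earlier results of these data known. The check of replicate numbers is given with the alternatives. Promoters of 43 members were in the RefSeq table on GRCh38.p14. Gene order on chromosomes is from RefSeq.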

Additional observations from a re-analysis of the deposited data

How the results depend on the processing

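Under 17 alternative settings, the 28 ligand gene changes followed individually (the 25 called ones with FGF5, FGF18 and ANGPT2) gave 456 values, of which 434 kept their direction and their side of the threshold, 20 lost the call, 2 gained one and 0 changed sign. Of the 25 called genes, 19 kept the call in every alternative run and FGF22, ARTN, PGF, EGF, BTC and PTN lost it in at least 1. Quantile normalization gave 15 lower ligand calls in place of 8; the cause was not tested. With only genes at or above the median signal, which leaves 11 ligand genes, 2 were higher and 2 changed at least 2-fold, receptors had 6 higher and 5 lower, and processing genes 5 higher and 3 lower; fewer genes were tested there. Of the feedback genes, 1 was lower in place of 2 under quantile normalization, centring, cyclic loess, the unmoderated test, array weights and the replicate block. Leaving out each array in turn gave 15 to 18 ligand genes higher, 7 to 11 lower and 4 to 5 at least 2-fold, 13 to 14 receptors higher and 9 to 11 lower, 8 to 9 processing genes higher and 5 to 6 lower, and 13 to 14 feedback genes higher and 1 to 2 lower.

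The sample numbers in the labels did not pair the arrays. Deviations from the group means correlated at -0.167 to -0.004 between arrays of the same number, and 0 SAHA arrays correlated best with their own number. With the number as a replicate block, 18 ligand genes were higher and 7 lower.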

Other observations

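Probe sets annotated to several genes belong to no comparison above. VEGFD is read only by a probe set shared with the readthrough gene PIR-FIGF, which changed by 0.0023 after SAHA (adjusted p = 0.984 over all probe sets, limma). FGF7 is also read by 6 probe sets shared with its pseudogene copies. Those 6 changed by -0.10 to 0.06 (adjusted p between 0.235 and 0.840, limma), and its own probe set by -0.05.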
